A study of Mus musculus with 12 samples.

Results

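The tubulin genes followed here are 10 genes chosen by name from the mouse tubulin family, and all 10 were among the 10481 genes of the deposited count table. They encode 5 β-tubulins (Tubb5, Tubb3, Tubb2a, Tubb2b and Tubb4b), 3 α-tubulins (Tuba1a, Tuba1b and Tuba1c), 1 γ-tubulin (Tubg1) and 1 δ-tubulin (Tubd1). Ribosome profiling, which sequences the mRNA fragments that ribosomes shield from RNase, was performed on brain and spinal cord of mouse embryos at E14.5. Control embryos were Smn+/-; SMN2tg/0 and SMA embryos were Smn-/-; SMN2tg/0, so both genotypes carried the human SMN2 transgene and the controls had lost 1 of their Smn alleles. Both belong to the Taiwanese mouse, a severe model of spinal muscular atrophy. Each of the 4 groups had 3 libraries, and whether brain and spinal cord libraries came from the same embryos was not stated. These were whole tissues, in which fewer cells of a type and less RNA per cell cannot be told apart, and a footprint count follows both the amount of an mRNA and the ribosomes on it.

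Microtubules are hollow polymers of α- and β-tubulin dimers, and they fill the axons and dendrites that neurons extend during embryonic development. Different genes encode closely similar isotypes, of which some are made mostly by neurons. γ-Tubulin starts new microtubules at centrosomes, whereas δ-tubulin is needed for the triplet microtubules of centrioles. Cells also sense free tubulin dimers and degrade α- and β-tubulin mRNAs on ribosomes when dimers are in excess.

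Library totals lay between 4207100 and 9117017 counts in control brain, 3683842 and 5406430 in SMA brain, 10315064 and 12793955 in control spinal cord and 5162190 and 8027322 in SMA spinal cord. Every SMA spinal cord library was thus shallower than every control spinal cord library, and depth and genotype cannot be told apart in that tissue. Every control brain library was also shallower than every control spinal cord library, so depth and tissue cannot be told apart in control embryos. The totals of SMA brain and SMA spinal cord overlapped. The tissue labels were checked on 2 spinal cord markers with a name, Hoxc8 and Hoxc10, whose summed normalized CPM (counts scaled to the library total with TMM factors) were at most 0.928 in brain and at least 106.6 in spinal cord. Control or SMA status rests on the labels, whose column headers name the controls WT, and the Smn genotypes are those of the study's methods. Neither was checked, since the sources used here pair no identifier of the table with Smn1 and the gene was not analysed.

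The genes are spread over several chromosomes (build GRCm38.p6), with an α cluster and a β pair. Tuba1a (ENSMUSG00000072235) lies at chr15:98949847-98953501, beside Tuba1b (ENSMUSG00000023004) at chr15:98931429-98934390 and Tuba1c (ENSMUSG00000043091) at chr15:99029891-99038105. Tubb2a (ENSMUSG00000058672) at chr13:34074278-34078008 and Tubb2b (ENSMUSG00000045136) at chr13:34127008-34130354 are neighbours. The other β genes stand alone, with Tubb5 (ENSMUSG00000001525) at chr17:35833920-35838301, Tubb3 (ENSMUSG00000062380) at chr8:123411553-123422015 and Tubb4b (ENSMUSG00000036752) at chr2:25222158-25224702. Tubg1 (ENSMUSG00000035198) at chr11:101119904-101126423 and Tubd1 (ENSMUSG00000020513) at chr11:86544991-86571608 share a chromosome. The coding sequences within the α group and within the β group are much alike and the authors kept reads with up to 5 alignments, so counts of single isotypes, Tubb2a and Tubb2b above all, may share reads.

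Promoter sequences from RefSeq (GRCm38.p6) were at hand for 8 of the 10 genes, all but Tubb2b and Tubg1. The 60 bases just before the start of transcription are shown for 3 β genes whose footprints moved together (Tubb5, Tubb3 and Tubb2a), for Tubb4b, which moved apart from them, and for Tubd1, which moved the other way. Capitals mark TATAA or its reverse complement TTATA, which overlap in Tubb3.
Tubb5, chr17:35838302-35838361, minus strand: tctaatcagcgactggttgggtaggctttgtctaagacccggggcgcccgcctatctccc
Tubb3, chr8:123411493-123411552, plus strand: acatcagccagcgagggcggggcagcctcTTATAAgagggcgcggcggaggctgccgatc
Tubb2a, chr13:34078009-34078068, minus strand: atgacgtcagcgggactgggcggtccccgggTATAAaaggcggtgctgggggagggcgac
Tubb4b, chr2:25224703-25224762, minus strand: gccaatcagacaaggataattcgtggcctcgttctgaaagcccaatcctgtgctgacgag
Tubd1, chr11:86544931-86544990, plus strand: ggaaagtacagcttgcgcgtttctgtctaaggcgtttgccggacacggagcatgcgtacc
TATAA on either strand was found in the 60 bases of 2 of the 8 genes, Tubb3 and Tubb2a, and in 7.24% of 32851 mouse promoters. CCAAT on either strand was found within the 250 bases before the start in 5 of the 8 genes, 5 times in Tubb4b, 2 times in Tubb5 and 1 time each in Tubb3, Tuba1a and Tuba1c, and in 33.8% of all promoters. Neither motif was in all of the genes that moved together for which a promoter was at hand.

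Among the tubulin genes, 4 β-tubulins were among the most heavily occupied genes of the table when counts were divided by the deposited gene length. Over all 12 libraries, Tubb2a had 3.10 counts per base (rank 39 of 10481), Tubb3 2.95 (rank 43), Tubb2b 2.90 (rank 46) and Tubb5 2.28 (rank 75). Tuba1a, the main α-tubulin of young neurons, followed at 1.70 (rank 123). Tuba1b (0.762, rank 535), Tuba1c (0.650, rank 690) and Tubb4b (0.482, rank 1075) were lower, Tubg1 was near the middle of the table at 0.129 (rank 4650), and Tubd1 was near its end at 0.0266 (rank 9486). What part of a transcript the deposited length covers was not given, which limits a comparison of levels between genes.

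On the scale of normalized CPM per kilobase, Tubb2a, Tubb3 and Tubb2b came highest in each group, in an order that varied, and the other 7 genes kept the order above. In control spinal cord, Tubb2a had 353 ± 45.6 (SD, n = 3), Tubb3 327 ± 37.6 and Tubb2b 314 ± 39.0. These 3 genes kept that order within each library, although their ranges over libraries overlapped. Tubb5 had 249 ± 25.8 and Tuba1a 187 ± 15.7. Tuba1b had 87.5 ± 7.58, Tuba1c 70.0 ± 7.79 and Tubb4b 63.8 ± 6.10, with Tuba1c above Tubb4b within each library. Tubg1 had 18.3 ± 0.338 and Tubd1 4.31 ± 0.865. In SMA brain, the order of Tubb2b (583 ± 78.1), Tubb2a (583 ± 85.1) and Tubb3 (580 ± 62.8) differed from library to library.

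**Figure D1:**
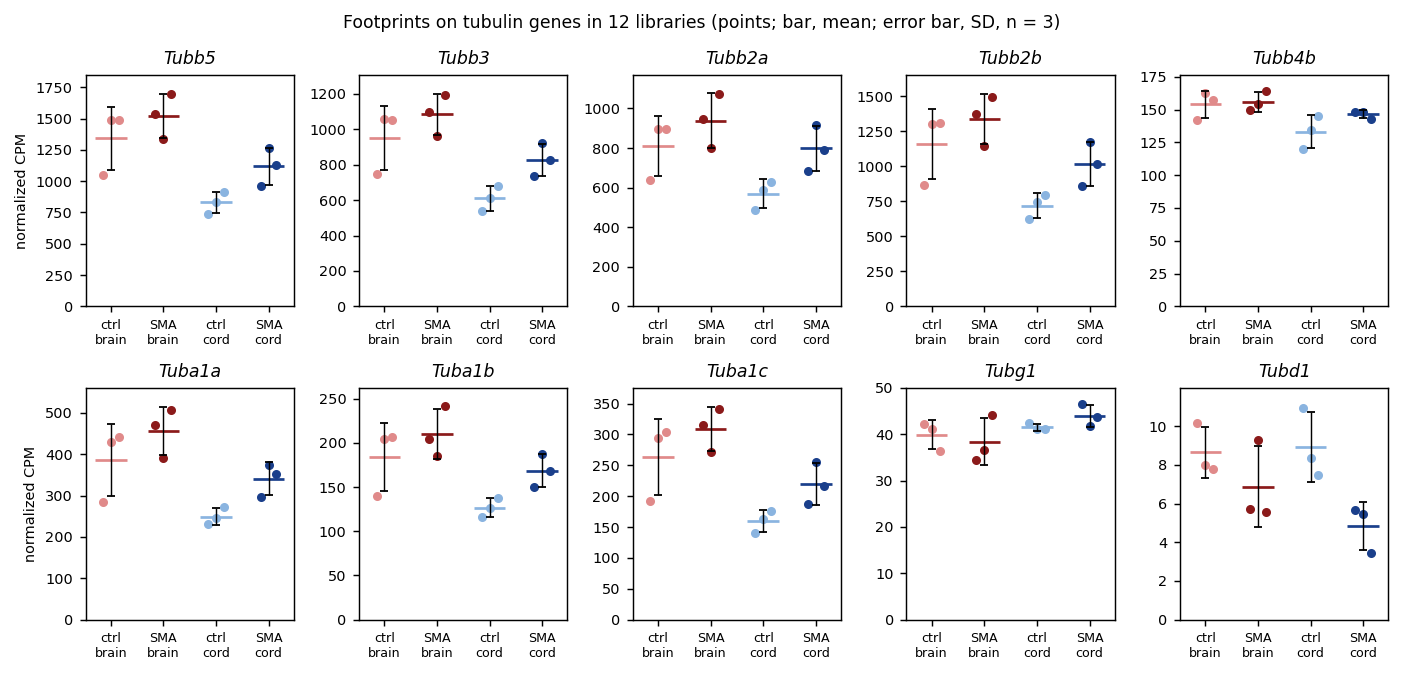
Normalized CPM (factors from all 12 libraries, linear axis from 0) of each tubulin gene in control and SMA brain and spinal cord; points are libraries, bars the mean and error bars the SD (n = 3). The 7 α- and β-tubulins other than Tubb4b show the same profile over the groups, Tubb4b and Tubg1 are flatter and Tubd1 is lowest in SMA spinal cord.

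The shares of the isotypes lay close together in all groups. Of the footprints per length on the 3 α genes, Tuba1a held 54.3% ± 0.567 in control and 54.6% ± 0.857 in SMA spinal cord, and 54.5% ± 0.147 and 55.0% ± 0.807 in brain (SD, n = 3 each). Of the footprints per length on the 5 β genes, Tubb3 held 25.03% ± 0.400 in control and 24.8% ± 0.487 in SMA spinal cord, against 25.5% ± 0.0785 and 25.5% ± 0.391 in brain. Between genotypes in spinal cord, the share that differed most in percentage points was that of Tubb4b, a β-tubulin of ciliary axonemes among other places. It was 4.89% ± 0.117 in control and 3.97% ± 0.542 in SMA spinal cord, and 3.76% ± 0.529 and 3.30% ± 0.364 in brain, with the lowest control spinal cord library at 4.81% and the highest SMA one at 4.57%. These shares are given as a description, with no test.

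In SMA spinal cord, 7 of the 8 α- and β-tubulin genes had higher ribosome occupancy than in control at the thresholds used for pathways in the study (a log2 fold change of 0.3 or more in size, with p below 0.05 before adjustment), by 1.32- to 1.40-fold, and Tubd1 had lower occupancy, at 0.540 of control. Tubb4b and Tubg1 did not pass. Across the table, 2.05% of genes passed in the higher direction and 2.14% in the lower. No tubulin gene passed after adjustment over all genes in edgeR's quasi-likelihood test, where the adjusted p was 0.684 for each of the 8, and no gene of the table did.

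Tubb5, a β-tubulin made in most tissues, had 760, 852 and 925 normalized CPM in control spinal cord libraries 1 to 3 and 978, 1280 and 1131 in the SMA ones. All 3 SMA libraries were above all 3 controls, and the log2 fold change was 0.42 (SE 0.11, 95% interval 0.15 to 0.68). Tubb3, the class III β-tubulin used as a marker of neurons, had 554, 624 and 690 in control and 746, 933 and 827 in SMA, a log2 fold change of 0.42 (SE 0.11). Its groups did not overlap either.

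Tubb2a, a β-tubulin abundant in neurons, had 499, 601 and 637 in control and 694, 929 and 796 in SMA spinal cord (log2 fold change 0.48, SE 0.13). Its neighbour Tubb2b, in which mutations disturb cortical development, had 638, 758 and 807 in control and 873, 1188 and 1023 in SMA (0.49, SE 0.13). SMA libraries of both genes lay above every control. Tubb4b had 123, 137 and 147 in control and 150.5, 150.5 and 143.6 in SMA, so that its groups overlapped, with a log2 fold change of 0.13 (SE 0.09, 95% interval −0.09 to 0.34).

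The α-tubulins gave the same picture. Tuba1a, in which mutations cause lissencephaly, had 236, 250 and 275 normalized CPM in control and 300.0, 379 and 353 in SMA spinal cord, or 0.44 on the log2 scale (SE 0.11, 95% interval 0.18 to 0.69). Tuba1b, an α-tubulin of most cell types, had 119, 129 and 140 in control and 152, 190 and 169 in SMA (0.40, SE 0.11). For Tuba1c the values were 144.7, 165 and 179 in control and 190, 258 and 218 in SMA (0.45, SE 0.14). None of the 3 genes overlapped between genotypes.

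Outside the α and β groups, Tubg1 had 43.5, 41.9 and 41.6 normalized CPM in control and 47.2, 42.3 and 43.9 in SMA spinal cord (log2 fold change 0.07, SE 0.09, 95% interval −0.14 to 0.28), and the groups overlapped. Tubd1 had 11.2, 8.50 and 7.59 in control and 5.75, 5.51 and 3.45 in SMA, a log2 fold change of −0.89 (SE 0.27, 95% interval −1.52 to −0.26). Its counts were low, between 79 and 144 in control and between 21 and 46 in SMA. The highest SMA library was below the lowest control.

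An exact permutation test (2-sided) gave p = 0.1 for each of these 8 genes, which is its floor with 3 libraries a group. Of all genes, 7.52% lay higher in every SMA spinal cord library than in every control and 7.14% lower. Unadjusted p in edgeR ran from 0.0049 for Tuba1a to 0.0133 for Tuba1c. DESeq2 called the same 8 genes at the pathway thresholds, which 4.00% of all genes passed in it, and its adjusted p was below 0.05 for 6 of the 8 tubulin genes it adjusted, from 0.0113 for Tuba1a to 0.0380 for Tuba1b, while Tuba1c had 0.0505 and Tubg1 and Tubd1 received none. DESeq2 passed 2.43% of the genes it adjusted. Tubd1 was the only member past the study's threshold for single genes, a log2 fold change of 0.5 or more in size.

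In brain, no tubulin gene passed, against 1.19% of all genes that passed as higher and 2.57% as lower. No member had an unadjusted p below 0.05 in edgeR or in DESeq2. The values of 8 of the 10 lay above 0, with a median log2 fold change of 0.21 where the median of all genes was 0.00. Tubb5 had 1016, 1466 and 1467 normalized CPM in control brain libraries 1 to 3 and 1526, 1327 and 1671 in the SMA ones, a log2 fold change of 0.20 (SE 0.14, 95% interval −0.10 to 0.49). Control library 1 was low for this gene, and the other libraries overlapped.

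Tuba1a had 276, 424 and 436 in control and 468, 388 and 499 in SMA brain (0.26, SE 0.15, 95% interval −0.07 to 0.59). The remaining genes of the group that was higher in spinal cord had log2 fold changes between 0.20 (Tubb3) and 0.25 (Tuba1c) in brain. Control library 1 was the lowest brain library for all 7 genes, and without it the median over the members was 0.04 (0.12 without SMA library 3). Tubb4b had 137, 160 and 155 in control and 148, 153 and 162 in SMA brain (0.04, SE 0.10), with groups that overlapped. The direction for Tubb4b was not stable, and its value fell below 0 without control library 1.

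Tubg1 had 40.7, 40.6 and 35.9 in control and 34.3, 36.2 and 43.5 in SMA brain (−0.05, SE 0.13). Tubd1 had 9.83, 7.87 and 7.71 in control and 5.71, 9.19 and 5.51 in SMA (−0.30, SE 0.25, 95% interval −0.84 to 0.23). Neither separated the genotypes. None of the 10 genes kept its brain groups apart, which 11.0% of all genes did in 1 direction or the other.

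Whether the genotype effect differed between tissues was tested as an interaction, brain effect minus spinal cord effect. No member had an unadjusted p below 0.05 in edgeR or in DESeq2, against 2.38% of all genes in edgeR, and no gene of the table passed after adjustment by either tool. The estimates for the 7 genes that were higher in SMA spinal cord ran from −0.21 (Tuba1a, SE 0.22) to −0.29 (Tubb2b, SE 0.23), and that for Tubd1 was 0.55 (SE 0.38). A difference between the tissues was therefore not shown. Without control brain library 1, 4 of the 10 genes had an unadjusted p below 0.05, as did 4.04% of all genes in that fit.

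**Figure D2:**
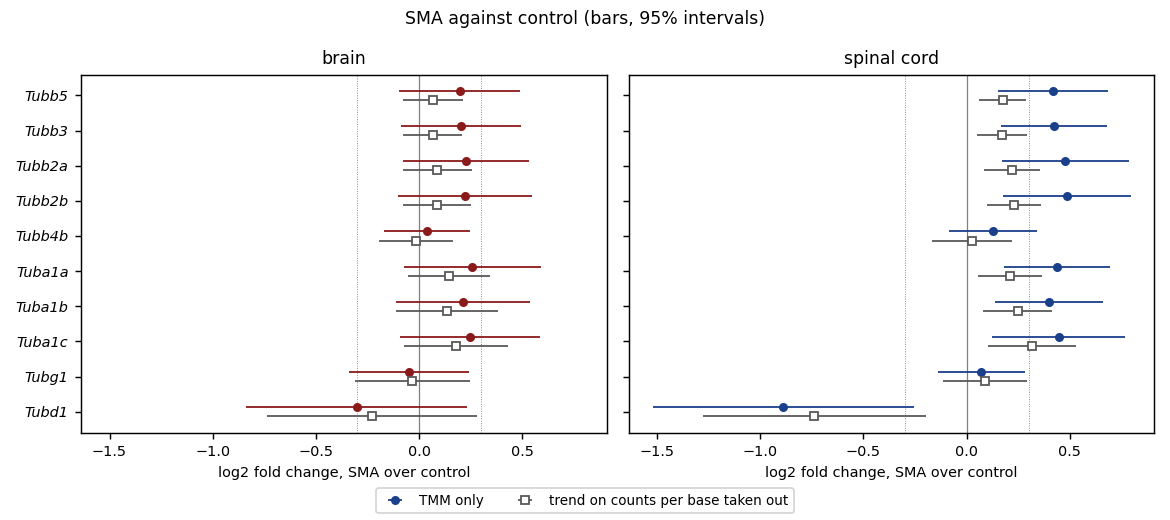
Log2 fold change of SMA over control in brain and spinal cord for each tubulin gene with its 95% interval; filled symbols, TMM normalization; open squares, after a trend on counts per base was taken out of each library; dotted lines, the threshold of 0.3. In spinal cord 7 filled symbols lie between 0.40 and 0.49, whereas all open squares but that of Tuba1c and of Tubd1 lie inside the dotted lines.

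The size of these values depended on how a trend with footprint density was handled. Over all 10481 genes, the log2 fold change of SMA over control rose with counts per base, with a Spearman's rho of 0.29 in spinal cord and 0.22 in brain (across genes, which are not independent replicates). Without control library 1 the rho was 0.12 in spinal cord and 0.07 in brain, and without SMA library 1 or 2 it was 0.49 or 0.18 in spinal cord. The 100 genes with the most counts per base, 4 β-tubulins among them, had a median log2 fold change of 0.23 in spinal cord and 0.14 in brain. When this trend was taken out of each library, the rho was −0.05 in spinal cord and 2 tubulin genes passed there, Tuba1c at 0.31 (SE 0.09) and Tubd1 at −0.74 (SE 0.23), as did 3.10% of all genes. The other 6 genes kept a higher value, but at log2 fold changes between 0.17 (Tubb3) and 0.25 (Tuba1b), below the threshold. Their unadjusted p was 0.0141 or less in edgeR, and the share of all genes with such a p was not counted. Their adjusted p was 0.800 in edgeR, and no gene of the table had one below 0.05 in that fit. In brain the median of the 10 genes became 0.08.

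**Figure D3:**
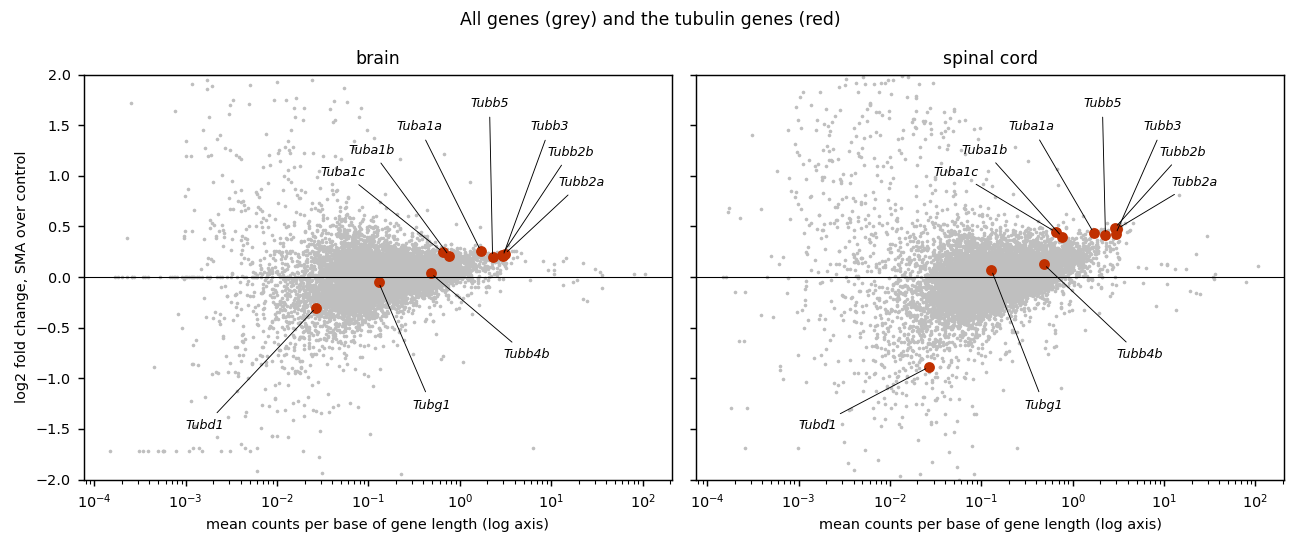
Log2 fold change of SMA over control (cut at −2 and 2, beyond which lie 140 genes in brain and 61 in spinal cord) against mean counts per base of gene length on a log axis, for all 10481 genes in grey and the tubulin genes in red. The 4 β-tubulins with over 2 counts per base sit at the right of the cloud, and Tubd1, at 0.0266 counts per base, lies below 0 in both tissues.

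Counts on these genes also did not grow in proportion to library totals. In spinal cord the deepest library (control 1) held 2.48 times the total of the shallowest (SMA 2), but 1.50 times its Tubb5 and Tubb3 counts, 1.36 times its Tubb2a and Tubb2b counts and 5.14 times its Tubd1 count. In brain the deepest (control 1) held 2.47 times the total of the shallowest (SMA 3), 1.58 times its Tubb5 count and 4.65 times its Tubd1 count. The 7 genes thus rose less than depth and Tubd1 rose more, in both tissues.

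As a slope of log2 count on log2 library total, fitted over the 6 libraries of a tissue, Tubb5 had 0.49 in spinal cord and 0.56 in brain, Tubb2b 0.40 and 0.48, and Tuba1a 0.49 and 0.44. Tubb4b had 0.87 and 0.92, Tubg1 1.01 and 1.12, and Tubd1 2.01 and 1.64. The median gene had 1.04 in spinal cord and 1.08 in brain. A slope of 1 stands for counts in proportion to depth. The authors removed reads that fell on the same transcript position, and whether the deposited counts come from before or after that step was not stated. Its part in these slopes and in the genotype values was not tested.

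**Figure D4:**
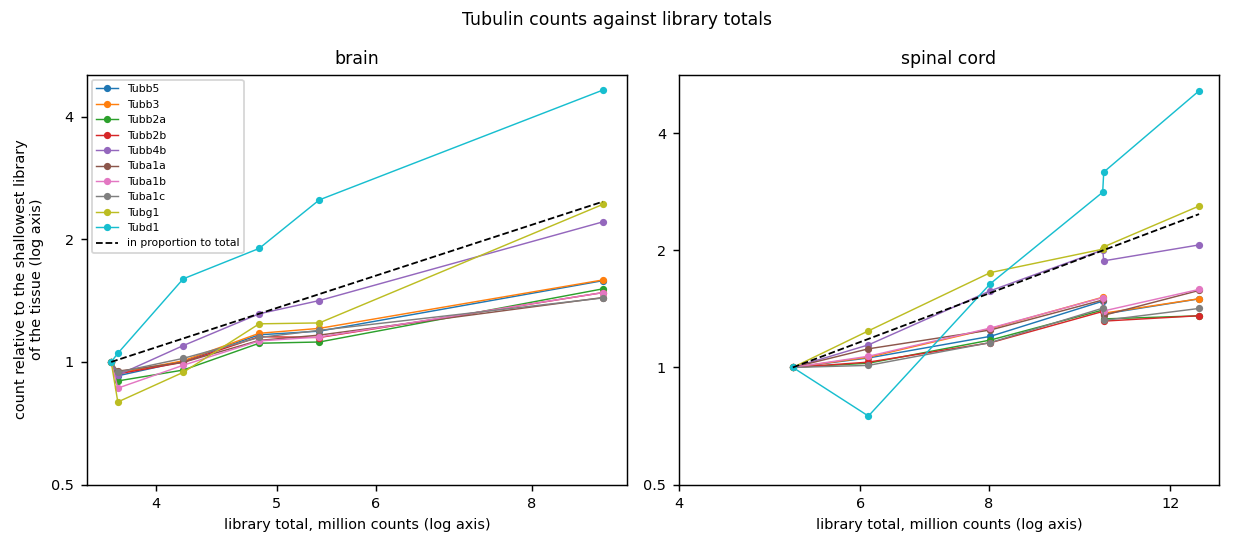
Footprint counts of each tubulin gene relative to the shallowest library of the tissue against the library total (both axes log), 6 libraries each; dashed line, counts in proportion to the total. The α- and β-tubulins other than Tubb4b stay below the dashed line, Tubb4b and Tubg1 run nearer to it, and Tubd1 lies above it except in SMA spinal cord library 3.

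In control embryos, 7 of the 10 tubulin genes had higher occupancy in brain than in spinal cord at a log2 fold change of 0.3 or more in size and an adjusted p below 0.05 in edgeR, as did 17.5% of all genes in that direction. They were the same α- and β-tubulins that were higher in SMA spinal cord, and the control spinal cord libraries enter both comparisons. All control brain libraries were shallower than all control spinal cord libraries, so tissue and depth cannot be told apart here. The part of depth in these values was not tested. On factors from all 12 libraries, Tubb5 had 1051, 1487 and 1486 normalized CPM in control brain and 741, 837 and 912 in control spinal cord. Its brain libraries all lay higher, and the log2 fold change was 0.68 (SE 0.15, adjusted p = 0.0099 in edgeR). Tuba1c had the largest value, 0.71 (SE 0.18), with 192, 295 and 304 in brain and 141, 162 and 176 in spinal cord.

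The remaining values were 0.63 (SE 0.15) for Tubb3, 0.68 (SE 0.17) for Tubb2b, 0.62 (SE 0.17) for Tuba1a, 0.52 (SE 0.16) for Tuba1b and 0.50 (SE 0.16) for Tubb2a. In Tubb2a and Tuba1b the tissues overlapped, while the other 5 genes were higher in every brain library, as were 26.2% of all genes. Tubb4b (0.20, SE 0.11, 95% interval −0.05 to 0.44), Tubg1 (−0.07, SE 0.10) and Tubd1 (−0.05, SE 0.21) did not pass. After the trend on counts per base was taken out, only Tuba1c passed (0.43, SE 0.13), while 35.6% of all genes passed in either direction. Without control brain library 2 or 3, 1 gene passed, and without control spinal cord library 1 or 2, 4 did.

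The SMA embryos gave the same comparison in libraries of their own. There 5 tubulin genes were higher in brain, Tubb5 (0.44, SE 0.11), Tubb3 (0.38, SE 0.10), Tubb2b (0.39, SE 0.13), Tuba1a (0.41, SE 0.12) and Tuba1c (0.48, SE 0.13), with adjusted p from 0.0167 to 0.0431 in edgeR, as were 16.4% of all genes. Tubb5 had 1534, 1340 and 1693 normalized CPM in SMA brain and 964, 1263 and 1126 in SMA spinal cord. All brain libraries were higher for Tubb5, Tubb3, Tuba1a and Tuba1c, as for 25.4% of all genes.

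Tubb2a (0.23, SE 0.13, 95% interval −0.07 to 0.52) and Tuba1b (0.31, SE 0.12, adjusted p = 0.0853 in edgeR) did not pass, although Tuba1b did in DESeq2. Tubd1 had 5.74, 9.28 and 5.58 in SMA brain and 5.68, 5.44 and 3.44 in SMA spinal cord (0.50, SE 0.32), values that overlapped. With the trend taken out no tubulin gene passed both thresholds in edgeR, against 35.3% of all genes in either direction. Tuba1c missed the fold threshold alone (0.29, SE 0.09, adjusted p = 0.0381 in edgeR), and Tubb5 had 0.15 (SE 0.06, adjusted p = 0.0832). Without SMA brain library 1 or 3 no gene passed, and 1 did without SMA spinal cord library 3.

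**Figure D5:**
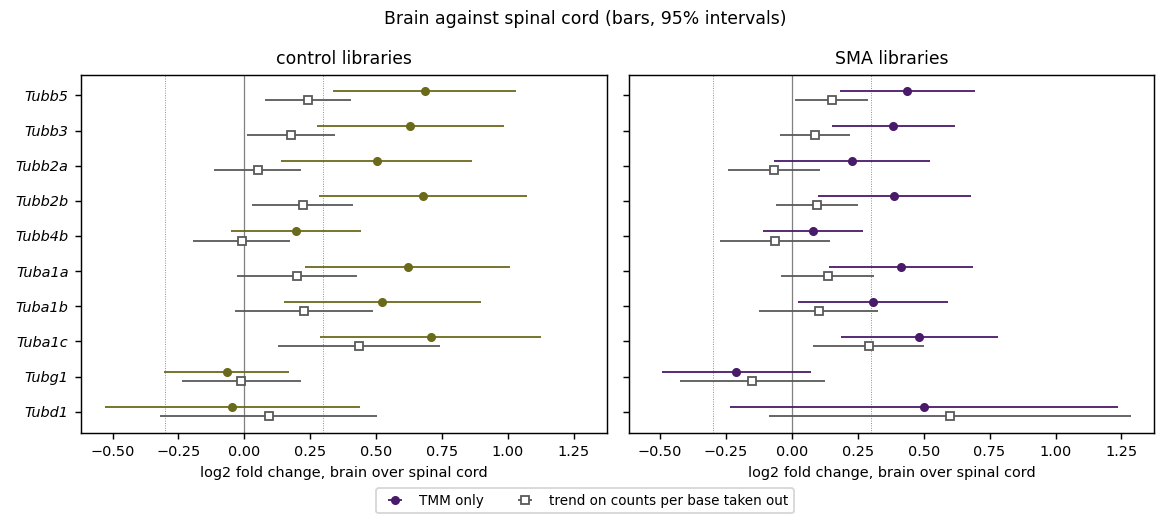
Log2 fold change of brain over spinal cord in control and in SMA libraries for each tubulin gene with its 95% interval; symbols as in the plot of the genotype comparison. Filled symbols of 7 genes lie above 0.3 in control, and the open squares of the α- and β-tubulins lie closer to 0 in both.

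The 7 α- and β-tubulins moved in step from library to library. Over the 12 libraries, Pearson's r of log2 normalized CPM was between 0.96 and 1.00 for their 21 pairs, and between 0.95 and 1.00 when each value was taken relative to its group mean. The libraries share depth and density trends, and the isotypes may share reads, so these values are descriptions. Within groups, Tubb4b had an r of 0.76 with Tubb3 and 0.64 with Tuba1a. Tubd1 ran the other way, with −0.65 against Tubb3, and Tubg1 had −0.19 with it.

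Of 9780 genes, named or not, whose mean was 20 counts or more, the 3 most like Tubb3 over the 12 libraries were Tubb5, Tubb2b and Tuba1c, with r of 0.998, 0.997 and 0.996. Those most like Tubb5 were Tubb3, Tuba1c and Tubb2b. Among genes outside the 10, the named gene most like Tubb3 was Tubb6, another β-tubulin, with an r of 0.989 (rank 7 of 9771), and for Tubb5 it was Ubb, a ubiquitin gene, with 0.991 (rank 4). These 2 were picked out after their values were seen.

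The other tubulin genes and the proteins that fold, sense, nucleate, modify or sequester tubulin could be followed only where a name was at hand. Of 10 further tubulin genes, 2 had a name. Tubb6 had 52.7 ± 5.73 normalized CPM in control and 64.0 ± 6.59 in SMA spinal cord (SD, n = 3), or 0.28 on the log2 scale (SE 0.12), and 0.17 (SE 0.13) in brain. Tubb1, the β-tubulin of platelets, had group means between 1.87 and 2.47 normalized CPM, at −0.01 (SE 0.30) in spinal cord and 0.26 (SE 0.44) in brain. Neither passed.

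Of the partner proteins, 3 of 8 subunits of the chaperonin CCT, which folds actin and tubulin, had a name, as did 2 of 6 prefoldin subunits, 1 of 7 folding cofactors, 2 of 4 genes of tubulin mRNA autoregulation, 2 of 8 genes of the γ-tubulin ring complex, 5 of 17 tubulin modifying enzymes and 1 of 4 stathmins. With the 2 tubulins these made 18 genes, and 0 passed in either tissue in edgeR. In spinal cord 1 of them, Cct3, had an unadjusted p below 0.05 in edgeR (0.13, SE 0.05), and in brain 0 did. DESeq2 passed 1 in spinal cord, Stmn4, a stathmin that binds tubulin dimers, whose edgeR log2 fold change was 0.31 (SE 0.14, unadjusted p = 0.0708 in edgeR), and 0 in brain. The median over the 3 CCT subunits was 0.09 in spinal cord and 0.06 in brain, against 0.42 and 0.21 over the 10 tubulin genes.

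Markers of other cell types that had a name were set beside the tubulin values, and their part in those values was not tested. Of 13 neuron markers 5 were followed, and their summed normalized CPM ran from 4340 to 5501 in control and from 5228 to 6382 in SMA spinal cord. The only one that passed was Mapt, which encodes the microtubule-binding protein tau, with a log2 fold change of 0.37 (SE 0.14) in spinal cord, and 0.20 (SE 0.11) in brain. Of 10 neural progenitor markers 3 were followed, and Nes, an intermediate filament gene of progenitors, was lower in SMA spinal cord (−0.41, SE 0.11) and brain (−0.33, SE 0.11). The other progenitor markers did not pass, with Fabp7 at 0.32 (SE 0.17) in spinal cord and 0.17 (SE 0.12) in brain, and Top2a at −1.27 (SE 0.66) and −0.19 (SE 0.09). The summed progenitor markers overlapped between genotypes, from 489 to 547 in control and from 448 to 557 in SMA spinal cord.

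The 1 blood marker with a name of 10, Slc4a1 of the red cell membrane, was higher in SMA spinal cord, with sums of 1.04 to 1.75 in control and 2.72 to 10.7 in SMA. These levels were low, and the highest value came from SMA library 1, far above the other SMA libraries. The 1 liver marker of 6, Apoa2, ran from 0.375 to 45.3 in control and from 1.64 to 116 in SMA spinal cord, and was at 0 counts in all control brain libraries. Both of 2 followed of 6 mesenchyme markers were lower in SMA brain, Col1a1 (−0.95, SE 0.35) and Col2a1 (−0.43, SE 0.12), and their sum ran from 118 to 132 in control and from 74.2 to 104 in SMA brain. In spinal cord neither passed. Markers of endothelium, muscle and peripheral nerve had no name at hand.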

How the data were processed

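Ribosome footprints of 12 libraries were analysed, 3 for each pair of tissue and genotype. Per the submitters' processing notes, reads were trimmed with cutadapt 4.1 and aligned with STAR 2.5.3a to GRCm38.p6. The authors removed rRNA and tRNA reads, kept reads with up to 5 alignments, removed reads on the same transcript position and dropped genes of low FPKM. The deposited values are raw counts per gene and library, with a gene length of the authors, and the counting tool was not given in the sources used here.

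Groups and replicate numbers were taken from the labels. Counts were tested with edgeR 4.0.16 in R 4.3.3 (TMM, glmQLFit, glmQLFTest, 2-sided, Benjamini-Hochberg over 10481 genes) within each tissue, as the study's methods state, within each genotype between tissues, and as an interaction over 12 libraries. The standard error is the size of the unshrunken log2 fold change over the square root of F. The 95% interval uses this error and the test's degrees of freedom around the reported log2 fold change, which edgeR shrinks. Alternatives were DESeq2 1.42.0, library size alone, filterByExpr, the replicate number as a block, a loess correction (span 0.3) of each library for counts per base, 1 fit over 12 libraries, and each library left out. Scripts were tested on simulated data. Normalized CPM uses the factors of 1 tissue unless all 12 libraries are named. No library repeated another of its group within sampling noise (chi-square per gene from 3.85 to 23.1). Figures were drawn with matplotlib 3.10.9.

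All 10 tubulin genes are named, with the called genes of the partner lists, all other tubulins with a name and the 3 genes most like Tubb3 and Tubb5. Cct3 and the genes most alike outside the 10 were picked after their values were seen. Members and lists were chosen with earlier results of these data known. Names came from the study's supplement for 1999 of 10481 genes and, for the tubulins, from the list of their Ensembl identifiers.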

Additional observations from a re-analysis of the deposited data

How the results depend on the processing

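In spinal cord, the same 7 higher genes and Tubd1 passed between genotypes with DESeq2, library size alone and filterByExpr. They also passed in the fit over all 12 libraries and with each library left out (8 genes each time). Tubb5 lay between 0.32 and 0.51 and Tubd1 between −1.03 and −0.69. Only 2 passed once the trend was removed that links fold changes to counts per base. Of all genes, 439 passed in the main fit, 419 with DESeq2, 465 with library size alone and 447 with filterByExpr. The fit over all 12 libraries passed 578 and the one with the trend removed 325. With a library left out, the number ran from 231 (without control library 1) to 980 (without SMA library 1). In brain, leaving out a library gave between 0 and 3 genes, with 1 without control library 3 and 3 without SMA library 2, where 458 and 549 of 10481 genes passed against 394 with all libraries. Between tissues, removing that trend left 1 gene in control and 0 in SMA, and leaving out a library gave between 1 and 7 in control and between 0 and 5 in SMA, with 2548 to 3781 and 2619 to 3994 of all genes. The cause was not tested. Values that turned direction with the trend removed were Tubb4b between genotypes in brain (−0.016), Tubb4b between tissues in control (−0.010) and SMA (−0.065), Tubb2a between tissues in SMA (−0.069) and Tubd1 between tissues in control (0.092). With a library left out, Tubb4b between genotypes in brain ran from −0.030 to 0.079, Tubg1 there from −0.154 to 0.015 and Tubd1 between tissues in control from −0.19 to 0.13. Same-numbered libraries did not deviate together in every pair. Pearson's r ran from −0.51 to 0.69 between genotypes in spinal cord and from −0.12 to 0.01 in brain. Between tissues it ran from −0.02 to 0.12 in control and from 0.09 to 0.28 in SMA. Deviations from a mean of 3 libraries constrain each other, so these values cannot decide whether the number is a pairing. With the number as a replicate block, 8 tubulin genes passed between genotypes in spinal cord, 0 in brain, 7 between tissues in control, 5 in SMA and 0 in the interaction. Over all genes, the block moved the spinal cord genotype count from 439 to 744. Tubd1, with 20 to 144 counts per library, is the gene most limited by depth.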
